A study of Mus musculus with 16 samples.

Results

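The measurements described here are small RNA reads with bases before the annotated first base of a mature miRNA, called 5′ extended reads, in mouse 3T9 fibroblasts. The added bases match the hairpin in templated reads and do not match it in non-templated reads. Members are the 112 of 1167 miRNAs with reads that reached 200 CPM (a read count divided by its library's total and put on one common scale) when the 16 libraries were pooled. The 5′ share of a miRNA is its templated plus non-templated 5′ extended reads as a percentage of all its reads (reference, trimmed, 3′ extended and 5′ extended). Members were thus chosen by their pooled level, which counts their 5′ extended reads too, and their 5′ share was not used. miR-3074-2-3p reached the threshold through these reads, with 69 of its 26445 reads in other classes. Of the 112 members, 109 had at least 1 5′ extended read, and 47 passed a filter of a mean of 5 such reads per library. Just above the level threshold were miR-19b-3p, with 200.2 CPM and a 5′ share of 0.0367%, and miR-17-5p, with 202.1 CPM and 0.377%. Just below it were miR-5099, with 192.1 CPM and 80.0%, and miR-140-5p, with 187.3 CPM and 0.0049%.

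3T9 is an immortalised fibroblast line grown from mouse embryo cells. All cells were deprived of serum for 72 h to make them quiescent and were then stimulated with complete medium holding 10% fetal bovine serum (FBS), so the 0 h libraries are quiescent cells without stimulation. The 8 times were 0, 1, 2, 4, 6, 8, 10 and 12 h, with 2 libraries at each from independent experiments. The 8 libraries of experiment 1 carry one run name in the table and the 8 of experiment 2 another, so run and experiment cannot be told apart, and the p-values below measure the spread between these libraries of a single cell line. All 7 fibroblast marker miRNAs were present and summed to between 352213 and 415140 CPM per library. Of the other marker lists, the liver and gut list summed to 672 to 841 CPM, most of it miR-192-5p, and the epithelial list to 66.0 to 133 CPM. The blood, neural, pluripotent and muscle lists stayed at or below 10.98 CPM, with miR-144-3p, miR-124-3p and 3 of 6 pluripotent markers at 0 reads. The part of other cell types in the results below was not tested.

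In miRNA biogenesis, the nuclear enzyme Drosha cuts the hairpin out of its primary transcript and the cytoplasmic enzyme Dicer then removes the loop. Drosha sets the 5′ end of the 5p arm, and Dicer sets the 5′ end of the 3p arm. A miRNA recognises its targets mainly through the seed, bases 2 to 8 from its 5′ end, so a molecule that starts 1 base earlier carries a different seed. Such molecules are called 5′ isomiRs.

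The sequences below are those of the members on which the results turn: the 5 with the highest templated 5′ shares after miR-3074-2-3p, and miR-222-3p, let-7g-5p and miR-21a-5p, whose 5′ shares are followed over time. They come from the RefSeq tables of assembly GRCm38.p6, are written 5′ to 3′, and carry bases 2 to 8 in capitals. The second form of each is the reference with the 1 hairpin base that precedes it. The count table does not give the number of added bases, so this form shows which seed a start 1 base earlier would make.
miR-214-3p, reference: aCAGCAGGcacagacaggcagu
miR-214-3p, 1 base earlier: uACAGCAGgcacagacaggcagu
miR-335-3p, reference: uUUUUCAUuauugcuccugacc
miR-335-3p, 1 base earlier: gUUUUUCAuuauugcuccugacc
miR-671-3p, reference: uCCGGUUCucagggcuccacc
miR-671-3p, 1 base earlier: cUCCGGUUcucagggcuccacc
miR-423-3p, reference: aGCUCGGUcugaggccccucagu
miR-423-3p, 1 base earlier: aAGCUCGGucugaggccccucagu
miR-29a-3p, reference: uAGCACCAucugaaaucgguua
miR-29a-3p, 1 base earlier: cUAGCACCaucugaaaucgguua
miR-222-3p, reference: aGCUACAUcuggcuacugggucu
miR-222-3p, 1 base earlier: cAGCUACAucuggcuacugggucu
let-7g-5p, reference: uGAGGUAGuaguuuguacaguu
let-7g-5p, 1 base earlier: cUGAGGUAguaguuuguacaguu
miR-21a-5p, reference: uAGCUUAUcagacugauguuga
miR-21a-5p, 1 base earlier: aUAGCUUAucagacugauguuga
In GRCm38, the hairpin of miR-214 is at chr1:162223368-162223477 on the plus strand, in an exon of the antisense RNA gene Dnm3os and opposite an intron of Dnm3. The hairpin of miR-335 is at chr6:30741299-30741396 (plus), in an intron of Mest. That of miR-671 is at chr5:24592114-24592211 (plus), over an exon of Chpf2 and opposite an exon of Smarcd3. The hairpin of miR-423 is at chr11:77078064-77078172 (minus), in an intron of Nsrp1. Those of miR-29a (chr6:31062660-31062747, minus) and miR-222 (chrX:19146893-19146971, minus) overlapped no other annotated gene. let-7g lies at chr9:106178840-106178927 (plus), in an intron of Wdr82, and miR-21a at chr11:86584067-86584158 (minus), in an annotated untranslated region (UTR) of Vmp1.

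5′ extended reads were rare for most members and common for a few. The median 5′ share over the 112 members was 0.0370%, 81 members were under 0.1%, and 12 were at 1% or more. Without miR-3074-2-3p the median was 0.0367%, and 11 were at 1% or more. Pooled over members and libraries, 347507 reads were 5′ extended, a share of 0.322%. After miR-3074-2-3p at 99.7%, the highest shares were 15.5% for miR-214-3p (95% Wilson interval 15.2% to 15.7%), 7.85% for miR-335-3p (7.77% to 7.92%), 6.996% for miR-671-3p (6.68% to 7.33%), 6.81% for miR-423-3p (6.69% to 6.95%) and 4.18% for miR-29a-3p (4.12% to 4.23%). Without molecular identifiers in the reads, these intervals hold counting error alone. A step down from these were miR-27b-5p at 1.94%, miR-322-3p at 1.55%, miR-872-3p at 1.43%, miR-151-3p at 1.38%, miR-152-3p at 1.05% and miR-199a-3p at 1.04%. The next 3 were miR-151-5p at 0.895%, miR-26a-5p at 0.861% and miR-221-5p at 0.714%.

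**Figure D1:**
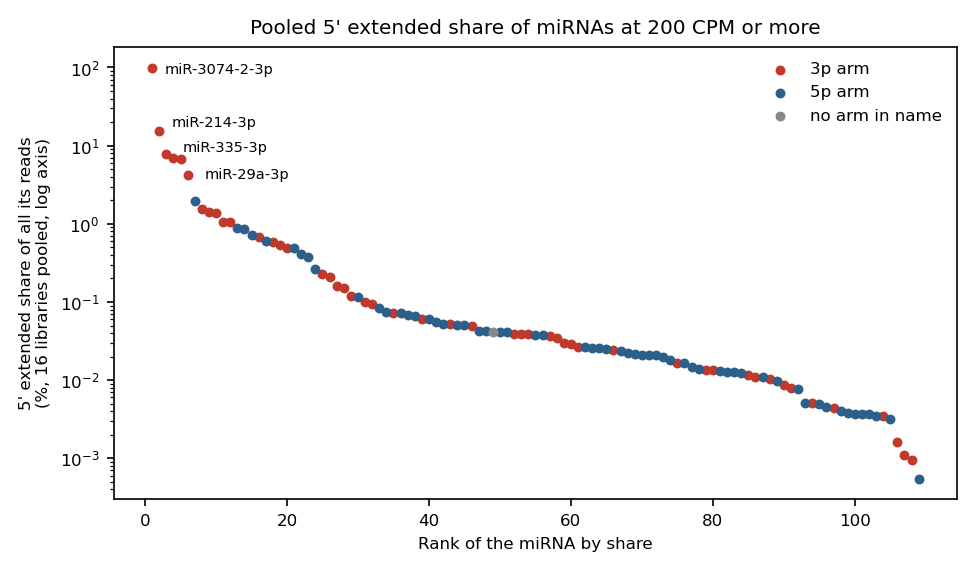
5′ share of each member (y axis, log scale, percent of the miRNA's reads pooled over 16 libraries) against its rank (x axis), coloured by hairpin arm, for the 109 members with at least 1 such read. A few members lie above 1%, 11 of them 3p arms and 1 a 5p arm, and most lie under 0.1%.

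High shares lay mostly on 3p arms. These shares include non-templated reads, and medians by arm were not taken on templated reads alone. The 49 members from 3p arms had a median 5′ share of 0.0529%, and 11 of them, miR-3074-2-3p included, were at 1% or more. The 62 members from 5p arms had a median of 0.0227%, and 1 of them, miR-27b-5p, was at 1% or more. Among 15 hairpins with both arms among the members, the 3p arm had the higher share in 10 and the 5p arm in 5. Some of these directions rest on few reads. The smallest gaps were those of miR-574 (0.0134% for 3p against 0.0045% for 5p), miR-145a (0.0035% against 0.0122%) and miR-30a (0.0086% against 0.0031%). None of these arms passed the filter on 5′ extended reads. The pairs with the largest gaps were miR-335 (7.85% for 3p against 0.0139% for 5p), miR-423 (6.81% against 0.0251%), miR-27b (0.160% against 1.94%), miR-322 (1.55% against 0.117%) and miR-872 (1.43% against 0.0375%). In 4 of these 5 hairpins the 3p arm had the higher share, with miR-27b the other way round.

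At the other end, miR-93-5p had a share of 0.00055% and miR-92a-3p of 0.00095%. No 5′ extended read was found for miR-218-5p, miR-30e-5p or miR-425-5p. Their totals of 22980, 251510 and 50972 reads allow shares of up to 0.0131%, 0.0012% and 0.0059%, taken as 3 reads. The most abundant members had low shares with many reads behind them. miR-22-3p, the most abundant at 146237 CPM, had a share of 0.0725%, miR-143-3p (135862 CPM) 0.497%, miR-99b-5p (91821 CPM) 0.0210% and miR-27b-3p (81087 CPM) 0.160%. By read number miR-143-3p led with 73530 5′ extended reads, which was 21.2% of the members' 5′ extended reads, followed by miR-26a-5p with 43072, miR-335-3p with 39780, miR-21a-5p with 30759 and miR-3074-2-3p with 26376. With miR-151-3p (20272), miR-29a-3p (19796) and miR-199a-3p (15349), these 8 miRNAs held 77.4% of the members' 5′ extended reads.

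By family, the 9 let-7 guide members, which share a seed and restrain growth genes, ranged from 0.0207% to 0.596%. let-7g-5p was the highest of them, followed by let-7d-5p at 0.484%. Reads can be shared between such near-identical miRNAs, so the split between them is uncertain. The 5 miR-30 guide members ranged from 0% to 0.0414%. A list of 17 miRNAs described elsewhere with alternative 5′ ends had 3 members, miR-183-5p at 0.0678%, miR-101b-3p at 0.0045% and miR-140-3p at 0.0016%. The 5′ shares of these 3 members were low, and the rest of the list lay below the level threshold. Also below it, miR-101a-3p had 658 and 703 5′ extended reads at 0 h (experiments 1 and 2). The low shares of the 3 members thus do not speak for miRNAs below the threshold. A start downstream of the annotated base would not fall in the 5′ extended class, and the trimmed class does not say which end was shortened.

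RefSeq gave a mature sequence for 100 of the 112 members and the hairpin base before it for 94. A start 1 base earlier would give 11 of these 94 the reference seed of another mouse miRNA. miR-128-3p would take the seed of miR-27a-3p and miR-27b-3p, miR-130a-3p that of miR-148a-3p, miR-148b-3p and miR-152-3p, and miR-103-3p that of miR-15a-5p, miR-16-5p and relatives. All 11 had 5′ shares at or below 0.0395%, so none of the checked members with a high share was among them. Members without a sequence could not be checked, among them miR-151-3p at 1.38%, miR-151-5p at 0.895% and miR-143-3p at 0.497%. By the hairpin base before the mature sequence, the median share was 0.0836% for A (14 members), 0.0367% for C (27), 0.0304% for U (10) and 0.0202% for G (36), with wide overlap between the 4 groups. These shares include non-templated reads, whose added bases do not match the hairpin, so they do not describe templated starts alone.

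miR-3074-2-3p stood apart from all other members. Of its 26445 reads, 26376 were 5′ extended, 67 matched the reference and 2 were 3′ extended. Its share lay between 99.6% and 99.9% in the 16 libraries, and its level between 204 and 285 CPM. Its hairpin (GRCm38 chromosome 8, 84208825 to 84208907, minus strand) lies opposite the hairpin of miR-24-2 (84208815 to 84208921, plus strand). The sequences are shown because the reverse complement of miR-24-2-5p contains miR-3074-2-3p whole. The capitals mark the bases beyond its annotated 5′ end.
miR-3074-2-3p: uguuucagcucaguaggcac
miR-24-2-5p: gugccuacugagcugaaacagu
Reverse complement of miR-24-2-5p: ACuguuucagcucaguaggcac
The 2 added bases, AC, are also the hairpin bases that precede miR-3074-2-3p. miR-24-2-5p had 13096 reads (120 CPM), of which 9621 matched its reference and 94 were 5′ extended. Whether the counting used the strand is not given in the sources used here, and without it reads from these strands cannot be told apart. The 5′ share of miR-3074-2-3p is therefore uncertain as a property of that miRNA.

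Added bases that did not match the hairpin made up 18.6% of the members' 5′ extended reads (64559 of 347507), and they were almost all of 1 kind. miR-26a-5p held 66.6% of them and miR-22-3p 16.1%, and without these 2 members the non-templated part of the pooled 5′ extended reads was 3.81%. The table sorts the non-templated reads into A, C, G, U and mixed forms. The C form held 61972 reads, 96.0% of the non-templated reads, and 89.0% of those left without miR-26a-5p. In 41 of the 48 members with at least 16 non-templated reads, C was the most frequent single-base form. In 27 of these 48 members, non-templated reads were most of the 5′ extended reads, so they were not confined to miR-26a-5p and miR-22-3p. By arm, they were 53.4% of the 5′ extended reads of 5p members, miR-26a-5p included, and 5.52% for 3p members. miR-26a-5p alone held 43017 of the 50582 non-templated reads of 5p members, so this contrast rests largely on 1 miRNA. The median 5′ share over members, taken per library, had a median of 0.0317% over the 16 libraries and of 0.0067% with templated reads alone.

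miR-26a-5p, a tumour-suppressive miRNA encoded in genes for small phosphatases, had the most such reads. Its 5′ extended reads were 99.9% non-templated, and 42809 were of the C form. Its reference sequence begins with U in the RefSeq table, with bases 2 to 8 in capitals.
miR-26a-5p, reference: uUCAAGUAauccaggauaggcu
The C form took 0.701% to 0.991% of all miR-26a-5p reads in a library (median 0.858%), and it was present in each of the 16. Its hairpins are at chr10:126995530-126995613 (plus), in an annotated UTR of Ctdsp2, and chr9:119031796-119031885 (plus), in an intron of Ctdspl.

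The non-templated part was also large for miR-22-3p (89.9% of 11544 5′ extended reads) and let-7f-5p (88.5% of 3102). It was 10.98% for miR-27b-3p and 8.41% for let-7d-5p, the next highest among members with at least 1000 5′ extended reads. The C form was 10135 reads for miR-22-3p and 2499 for let-7f-5p. For miR-143-3p the non-templated part was 511 of 73530 reads, of which 403 were of the G form and 1 of the C form. No sequence was at hand for miR-143-3p, so the hairpin base before it was not checked. If that base is C, an added C would count as templated. The 5 members with the highest templated shares after miR-3074-2-3p (miR-214-3p, miR-335-3p, miR-671-3p, miR-423-3p and miR-29a-3p) had 0.122% to 0.851% of their 5′ extended reads in the non-templated class. By class, the 5′ extended reads of these 5 members were thus mostly templated, unlike those of miR-26a-5p and miR-22-3p. The hairpin base before miR-671-3p and miR-29a-3p is C, so an added C would count as templated there. For these members the classes cannot tell an added C from an earlier start.

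**Figure D2:**
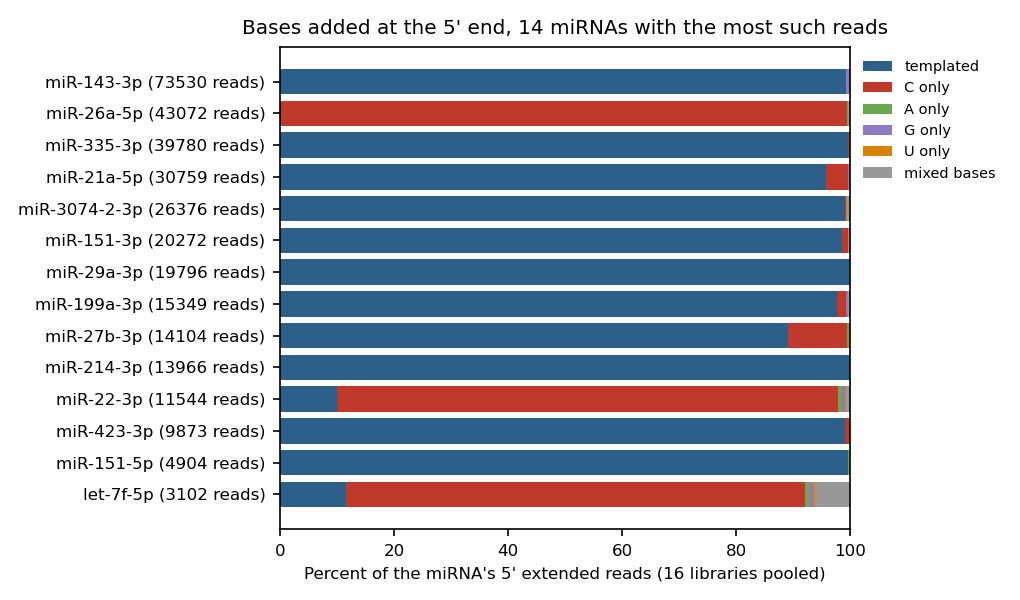
Kind of 5′ extended read (templated, or non-templated by added base) as a percentage of each miRNA's 5′ extended reads pooled over 16 libraries, for the 14 members with the most such reads. miR-26a-5p is 99.9% non-templated and miR-22-3p 89.9%, nearly all of it the C form, whereas miR-29a-3p is nearly all templated.

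The study asks how miRNAs are regulated when quiescent fibroblasts are given serum. For the 5′ ends the question is whether the share of 5′ extended reads changed over 12 h. The pooled share of a library, over all miRNAs, was 0.345% to 0.383% in experiment 1 and 0.377% to 0.407% in experiment 2, and experiment 2 was higher at all 8 times. Its correlation with time was Pearson r = -0.35 (permutation p = 0.191, adjusted over 2 relations 0.382) and Spearman rho = -0.25 (p = 0.355) over 16 libraries, with r = -0.53 in experiment 1 and r = -0.52 in experiment 2 (8 libraries each, permutation p = 0.173 and 0.197). With the experiment as a replicate block (values centred within each experiment, libraries permuted within it), r was -0.52 (permutation p = 0.0472, adjusted 0.0944) and rho -0.45 (p = 0.0961), so the pooled share missed the threshold after adjustment in both analyses. The median share over members gave r = -0.17 (permutation p = 0.533, adjusted 0.533) and rho = -0.11 (p = 0.699), with r = 0.29 in experiment 1 and r = -0.63 in experiment 2 (permutation p = 0.485 and 0.0975). With the block its r was -0.18 (permutation p = 0.521). Without the 2 libraries farthest from the median time, r was -0.29 for the pooled share and -0.24 for the median share.

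For single members changes were called. The 5′ reads of each miRNA were tested against all its reads with edgeR's quasi-likelihood test for a linear trend over time, with Benjamini-Hochberg adjustment over all 72 miRNAs that passed the filter (47 members). Of these 72, 12.5% were called at an adjusted p under 0.05 (9.72% rising and 2.78% falling). Among the 47 tested members 6 were called, 4 rising and 2 falling, and all 6 had the same sign in both experiments. The call used both experiments together, so this agreement is no separate test. Of the 44 members tested in both experiments, 30 had the same sign. The rising members were miR-29a-3p, miR-151-3p, let-7g-5p and miR-335-3p, and the falling members were miR-214-3p and miR-222-3p. With the experiment as a replicate block, 20.8% of the 72 were called (12.5% rising and 8.33% falling), among them 12 members. These were the same 6 with miR-21a-5p and miR-423-3p rising and miR-199a-3p, miR-23a-3p, miR-322-3p and miR-26a-5p falling. The block matters because the experiments differ in their shares: for miR-21a-5p and miR-199a-3p every library of experiment 2 lay above every library of experiment 1. The median slope of the 47 tested members was 0.0019 log2 units per hour, beside 0.00087 for all 72.

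miR-29a-3p, whose family represses collagen and other matrix genes in fibroblasts, had the steepest rise among the called members. In experiment 1 its 5′ share was 1.93%, 2.27%, 2.72%, 3.79%, 4.00%, 4.35%, 4.55% and 4.34% at 0, 1, 2, 4, 6, 8, 10 and 12 h. In experiment 2 it was 2.74%, 2.72%, 3.36%, 4.77%, 5.37%, 5.60%, 6.14% and 5.78%. All libraries from 4 h on were above all libraries of 0, 1 and 2 h, in both experiments. The 0 h and 12 h values rest on 448 of 23167 and 1571 of 36215 reads in experiment 1, and the 95% Wilson intervals there were 1.76% to 2.12% and 4.13% to 4.55%.

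The trend of miR-29a-3p was 0.0994 ± 0.0178 log2 units per hour (standard error, SE; adjusted p = 0.00129, edgeR), 0.0928 in experiment 1 and 0.101 in experiment 2. It was called in each experiment alone and under each alternative tried (adjusted p up to 0.0412). At 12 h against 0 h the log2 difference was 1.11 ± 0.26 (SE; adjusted p = 0.0513), and with the block 1.11 ± 0.05 (adjusted p = 1.19e-06). Its 5′ extended reads went from 87.0 ± 29.9 CPM (SD, n = 2) at 0 h to 264 ± 62.1 at 12 h, while its total level went from 3676 ± 380 to 5196 ± 182 CPM. The trimmed share of miR-29a-3p fell from 41.8% to 26.4% as its reference share went from 43.3% to 55.6%. Counted per 100 reference reads, the 5′ extended reads were 5.40 ± 1.31 at 0 h and 9.11 ± 1.97 at 12 h, and that trend was 0.0661 ± 0.0156 per hour (adjusted p = 0.00521, edgeR).

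miR-151-3p, from a hairpin in a gene for a focal adhesion kinase, rose from 1.09% and 1.32% at 0 h (experiments 1 and 2) to 1.53% and 1.77% at 12 h. Its lowest library was at 1.05%, the median at 1.38% and the highest at 1.77%. The trend was 0.0406 ± 0.0070 per hour (SE; adjusted p = 0.00129, edgeR), 0.0454 in experiment 1 and 0.0362 in experiment 2, and it was called in each experiment alone. In experiment 1 the 6 to 12 h libraries lay above the 0 to 4 h libraries, and so they did in experiment 2. Per reference read the trend was 0.0446 ± 0.0073 (adjusted p = 0.000568).

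let-7g-5p rose from 0.526% and 0.523% at 0 h to 0.683% and 0.727% at 12 h, with 127 5′ extended reads in each 0 h library and 156 and 157 at 12 h. Its 2 values at 12 h were above both values at 0 h, and the 2 values at 10 h (0.700% and 0.705%) were too. The trend was 0.0342 ± 0.0061 per hour (SE; adjusted p = 0.00129, edgeR), and in experiment 1 alone it was 0.0255 with adjusted p = 0.128. It was also called for any change over the 7 later times (adjusted p = 0.0483) and at 12 h against 0 h (log2 difference 0.43 ± 0.08, adjusted p = 0.0164). The 12 h call was lost without either 0 h or either 12 h library (adjusted p = 0.0553 to 0.275), and the call of any change without any 1 of 10 libraries, both of 0, 2, 6, 8 and 12 h. The level of let-7g-5p had no called trend (adjusted p = 0.629). The other 6 tested let-7 members were not called.

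miR-335-3p, encoded within the imprinted Mest gene, went from 8.20% and 7.36% at 0 h to 8.69% and 9.19% at 12 h. The lowest library was at 6.77% (2 h, experiment 2) and the highest at 10.4% (10 h, experiment 2), so the course dipped before it rose. The trend was 0.0262 ± 0.0076 per hour (SE; adjusted p = 0.0339, edgeR), 0.0415 in experiment 2 (adjusted p = 0.032) and 0.0099 in experiment 1 (adjusted p = 0.691). The difference between these slopes was not called (adjusted p = 0.843, edgeR). The call was lost without any 1 of 6 libraries (2 h and 12 h of experiment 1; 0 h, 1 h, 10 h and 12 h of experiment 2), with adjusted p up to 0.0771. It was also lost with limma on log2 odds (adjusted p = 0.0654), without the filter on low counts (0.134) and on a log2 time scale (0.159). Its level fell by 0.118 log2 units per hour (adjusted p = 4.33e-09), and its trimmed share went from 10.2% to 23.8%. Per reference read the trend was 0.0540 ± 0.0094 (adjusted p = 0.000577).

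**Figure D3:**
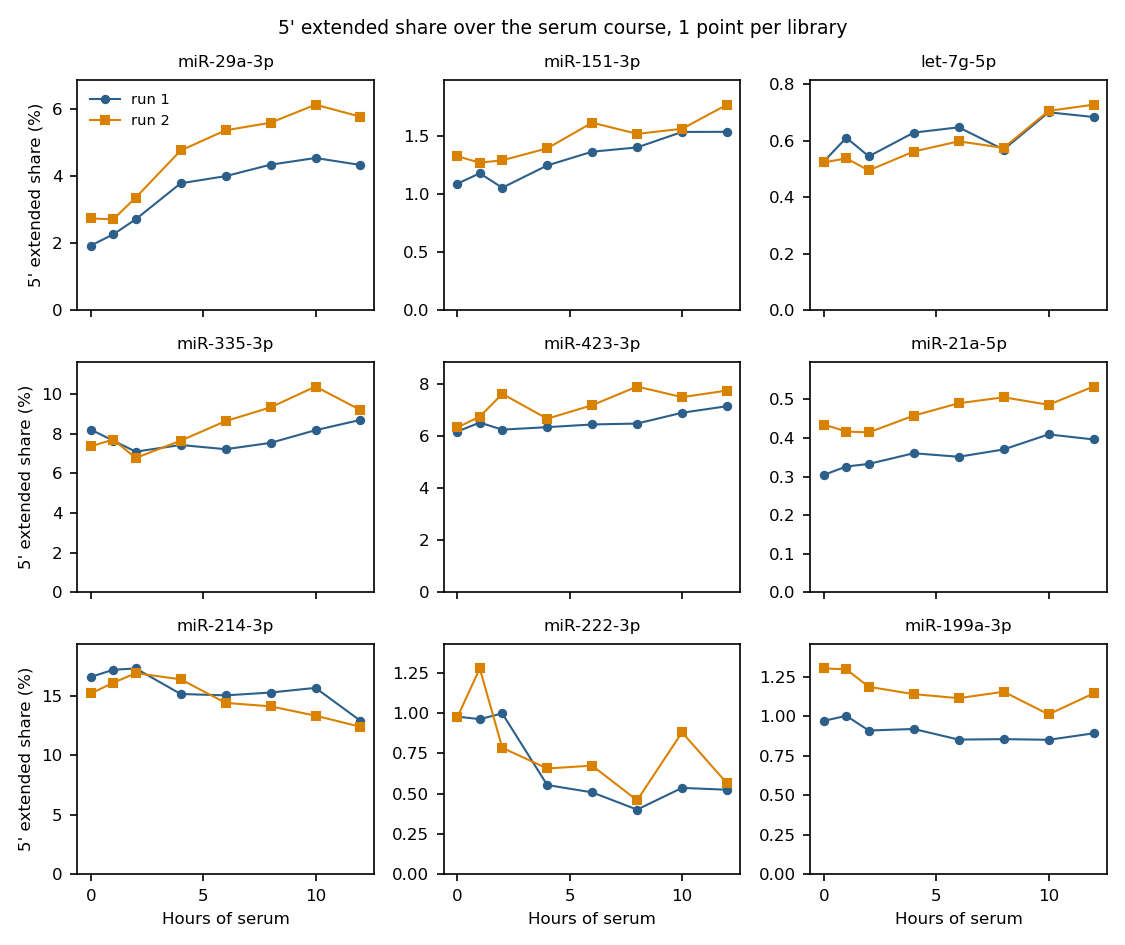
5′ share (percent of the miRNA's reads, linear axes) against hours of serum for 9 members with a called trend in the plain fit or with the replicate block, 1 point per library and 1 line per experiment (run 1 is experiment 1). miR-29a-3p goes from 1.93% and 2.74% at 0 h to 4.34% and 5.78% at 12 h, and miR-214-3p from 16.6% and 15.2% to 12.9% and 12.4%.

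miR-214-3p, made with miR-199a from the Dnm3os transcript and known in fibroblast and skeletal biology, fell as a share of its reads. At 0, 4 and 12 h its 5′ share was 16.6%, 15.1% and 12.9% in experiment 1, and 15.2%, 16.4% and 12.4% in experiment 2. Both 12 h libraries were below all others of their experiment. The highest library was at 17.3% (2 h, experiment 1). The trend was -0.0281 ± 0.0052 per hour (SE; adjusted p = 0.00149, edgeR), -0.0251 in experiment 1 and -0.0309 in experiment 2, where it was called in experiment 2 alone (adjusted p = 0.032) and not in experiment 1 alone (0.0953). The level of miR-214-3p fell from 1098 ± 24.3 CPM (SD, n = 2) at 0 h to 559 ± 11.7 at 12 h. Its trimmed share went from 18.8% to 27.3% and its reference share from 52.8% to 46.1%. Per 100 reference reads it had 30.1 ± 1.796 5′ extended reads at 0 h and 27.4 ± 0.69 at 12 h, and that trend was not called (-0.0101 ± 0.0067, adjusted p = 0.405). The ratio of the 5′ extended form to the reference form was thus not shown to change.

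miR-222-3p, a growth-associated miRNA that represses the cell cycle inhibitor p27, had the steepest fall of share among the called members, and its direction rested on the denominator. Its share was 0.978% and 0.973% at 0 h and 0.524% and 0.564% at 12 h, from 74 and 89 5′ extended reads at 0 h and 90 and 111 at 12 h. Both 12 h values lay below both 0 h values. The trend was -0.0762 ± 0.0217 per hour (SE; adjusted p = 0.0339, edgeR). The total level of miR-222-3p rose (0.114 ± 0.0112 per hour, adjusted p = 2.92e-07), and 3′ extended reads went from 93.7% to 97.2% of its reads. Reference reads went from 4.24% to 1.78%. Per 100 reference reads it had 23.0 ± 0.77 5′ extended reads at 0 h (SD, n = 2) and 30.7 ± 4.73 at 12 h, so the sign turned (0.0319 ± 0.0112 per hour, adjusted p = 0.0537). The call on the share was also lost without any 1 of 6 libraries (0 h, 2 h and 12 h of experiment 1; 0 h, 1 h and 12 h of experiment 2), with adjusted p up to 0.0726, and in each experiment alone (0.111 and 0.379). It was lost as well without the filter on low counts (adjusted p = 0.13) and without both 0 h libraries (0.117).

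A further 6 members were called with the replicate block and not without it. miR-21a-5p, a growth-associated miRNA abundant in fibroblasts, went from 0.304% and 0.435% at 0 h to 0.396% and 0.533% at 12 h (0.0296 ± 0.0031 per hour with the block, adjusted p = 5.75e-06; 0.0294 ± 0.0128 and 0.16 without it). It was called in each experiment alone, at 0.0310 and 0.0282 per hour. Per reference read its trend was 0.0710 ± 0.0146 (adjusted p = 0.00195), while its 3′ extended share went from 39.7% to 57.2%.

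miR-423-3p went from 6.16% and 6.32% to 7.13% and 7.73% (0.0167 ± 0.0039 per hour with the block, adjusted p = 0.00675; 0.0688 without it), and per reference read its trend was 0.0236 (adjusted p = 0.029). miR-199a-3p, identical in sequence to the miR-199b 3p arm, went from 0.971% and 1.30% to 0.892% and 1.14% (block adjusted p = 0.00675, 0.452 without it). miR-26a-5p, almost all non-templated, went from 0.796% and 0.947% to 0.705% and 0.912% (block adjusted p = 0.0328, 0.746 without it). miR-322-3p (1.83% and 1.45% to 1.21% and 1.22%) and miR-23a-3p (0.612% and 0.697% to 0.440% and 0.489%) had block adjusted p of 0.0328 and 0.0404, and 0.0627 and 0.0605 without it. Without the block, single libraries decided the calls of 3 of these: miR-423-3p was called when 8 h of experiment 1 or 2 h of experiment 2 was left out, miR-322-3p without 1 h of experiment 1 or 0 h or 6 h of experiment 2, and miR-23a-3p without 8 h of experiment 1 or 2 h or 10 h of experiment 2 (adjusted p = 0.0136 to 0.0493). Per reference read the trends of miR-199a-3p and miR-26a-5p turned to 0.0027 and 0.00038 (adjusted p = 0.876 and 0.969), and those of miR-322-3p and miR-23a-3p were not called (adjusted p = 0.13 and 0.218).

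**Figure D4:**
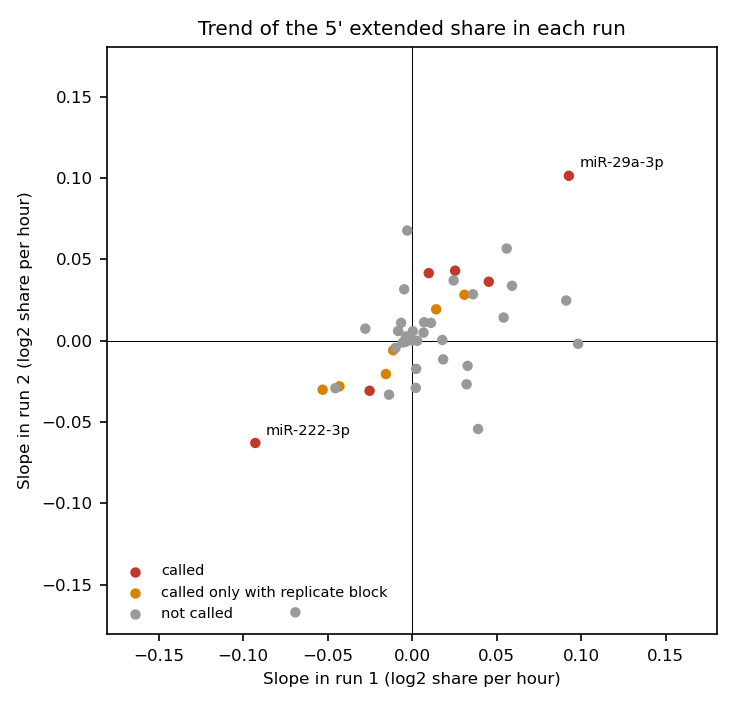
Trend of the 5′ share (log2 units per hour) in experiment 1 (run 1, x axis) against experiment 2 (run 2, y axis), 1 point for each of the 44 members tested in both. The 6 called members and the others called with the replicate block lie where both slopes have the same sign, as do 30 of all 44. miR-29a-3p is at 0.0928 and 0.101 and miR-222-3p at -0.0928 and -0.063.

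With reference reads as the denominator in place of all reads, 8 members were called, all rising. They were miR-29a-3p, miR-151-3p, let-7g-5p, miR-335-3p, miR-423-3p, miR-21a-5p, miR-872-3p (0.0595 per hour, adjusted p = 0.0498) and miR-152-3p (0.0562, adjusted p = 0.0491), with no member falling. Of the 65 miRNAs tested this way, 18.5% were called (16.9% rising and 1.54% falling). All 4 members that rose as a share were thus called with both denominators, and neither of the 2 that fell was.

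At 12 h against 0 h, 2.78% of the 72 miRNAs were called, and of the members let-7g-5p alone. With the block 12.5% were called (8.33% higher and 4.17% lower), among them 8 members. In that fit miR-29a-3p, miR-151-3p (0.45 ± 0.06), let-7g-5p (0.43 ± 0.07), miR-21a-5p (0.33 ± 0.06) and miR-423-3p (0.25 ± 0.07) were higher, and miR-222-3p (-0.84 ± 0.21), miR-214-3p (-0.33 ± 0.07) and miR-199a-3p (-0.16 ± 0.04) were lower (log2 differences ± SE, adjusted p up to 0.0433, edgeR). Without the block, leaving out either 10 h library brought the members called to 4 (let-7g-5p, miR-29a-3p, miR-214-3p and miR-222-3p). For any change over the 7 later times 2.78% were called (1 member, let-7g-5p), and with the block 11.1% (7 members: those 8 without miR-423-3p). A difference of slopes between the experiments was called for none of the 72 (0%) by edgeR, with 2 at an unadjusted p under 0.05. DESeq2 called 1, miR-411-5p, which is no member.

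Several members with high or abundant 5′ extended reads had no called trend. miR-143-3p stayed between 0.477% and 0.526% in the 16 libraries (-0.0033 ± 0.0027 per hour, adjusted p = 0.611). miR-671-3p was at 5.17% and 4.06% at 0 h and at 7.60% and 6.73% at 12 h, within a range of 4.06% to 9.57%. Its trend of 0.0311 ± 0.0181 per hour (adjusted p = 0.367) was close to that of let-7g-5p in size, with a larger SE, on a mean of 102 5′ extended reads per library. The share of miR-3074-2-3p, at 99.6% or more in each library, left no room for a rise, and its trend is not interpreted. miR-151-5p, the other arm of the miR-151 hairpin, had a slope of 0.0056 ± 0.0068 (adjusted p = 0.746), beside 0.0406 for miR-151-3p, and the difference between the arms was not tested.

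The total level of the members was tested beside the 5′ share. Of 449 miRNAs tested for a trend of their level, 25.2% were called, and of the 112 members 36 were (22 rising and 14 falling, against 12.0% rising and 13.1% falling over all 449). With the block 31.4% were called. Of the 6 members with a called trend of the share, 5 also had a called trend of the level, 3 of them in the same direction (miR-29a-3p, miR-151-3p and miR-214-3p). Among all 47 members tested for the share, 18 had a called trend of the level, 12 of them in the direction of their share. Of the 12 members called with the replicate block, 7 had a called level trend, 5 of them in the same direction. With library totals in place of TMM scaling (trimmed mean of M-values) 33.0% were called (8.24% rising and 24.7% falling), among them 49 members (13 rising and 36 falling), so the split of directions there depends on the scaling, and the level of miR-151-3p was not called (adjusted p = 0.401). The share of a miRNA's own reads does not use that scaling.

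Outside the members, the minor arm miR-222-5p had a called rise of its 5′ share at 12 h against 0 h (log2 difference 1.50 ± 0.15, adjusted p = 0.00024, edgeR), at a level below the threshold. Its trend was 0.0859 ± 0.0183 per hour (adjusted p = 0.0043), and it rose per reference read too (0.136, adjusted p = 0.00334). The other 2 non-members called by trend, miR-365-2-5p and miR-106b-3p, rose as well.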

How the data were processed

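The 16 libraries hold small RNA from 3T9 cells, from 1000 ng of total RNA and the TruSeq small RNA kit, per the labels' protocols. The authors deposited unnormalised read counts for each class of each miRNA, 1 column per library per the file headers. CASAVA 1.8.0 is named per the submitters' processing notes. The aligner, genome build, annotation release, use of strand and treatment of mismatches and multiply matching reads were not given in the sources used here. The class meanings were read from the class names. Of 6511 entries, 1 identical duplicate was dropped. Single-base entries repeat reads of the non-templated class, so they were kept out of totals. No column lacked a sample. Libraries held 5852087 to 7783249 miRNA reads and 22525 to 29841 5′ extended reads. CPM was computed on these totals. Between the libraries of each time, chi-square per degree of freedom was 69.4 to 372, which is beyond counting noise.

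The 5′ extended reads of each miRNA (mean of at least 5 per library) were tested with edgeR 4.0.16 (quasi-likelihood test, R 4.3.3), with the log of all reads of that miRNA in the library as offset and Benjamini-Hochberg adjustment at 0.05 over the 72 miRNAs tested. All 16 libraries entered each fit. Levels were tested with TMM scaling over 449 miRNAs. An SE is a log2 change divided by the root of its F value. Correlations used 100000 resamples. Tested on simulated data for the trend over 72 miRNAs, the fit found 62% of log2 changes of 1 over 12 h and 36% of those of 0.5, with 2.97% false among those called. The simulation gave every miRNA the same spread between libraries and no difference in share between experiments. These rates hold for that setting and may differ in the real libraries.

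Replicates are independent experiments in the series' design text, and the replicate number follows the run, so the numbers pair the libraries across times. The correlation of replicate differences between times had a median of 0.14 for 5′ shares (-0.27 to 0.45 over 28 pairs of times) and of 0.46 for levels (0.21 to 0.79). Alternatives were DESeq2 1.42.0, limma 3.58.1 on log2 odds with 0.5 reads added, odds, TMM on shares, other filters, templated reads alone, each experiment alone, log2 time, a replicate block and leaving out each library. Reference reads as offset, and the block for the correlations, were added after seeing the data.

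The members, lists and tests were chosen with earlier results of these data known. Named are the 15 highest and 5 lowest shares, the 8 members with most 5′ extended reads, the 5 with the highest non-templated part, called members with the same sign in both experiments, the 4 most abundant, neighbours of the threshold and the 5 widest arm gaps. miR-671-3p as a time course, miR-151-5p and the non-members were chosen after their values were seen. Sequences are RefSeq's for GRCm38.p6, and 12 members had no match.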

Additional observations from a re-analysis of the deposited data

How the results depend on the processing

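Of the calls on single members, miR-29a-3p and miR-151-3p kept theirs for the trend under every alternative run. The trend count of 9 miRNAs (6 members) was 5 without a filter, 15 (12 members) with the replicate block and 3 (3 members) in experiment 1 alone. It was 5 to 11 (4 to 8 members) when each library was left out, with 5 without 2 h or 12 h of experiment 1 or 1 h or 12 h of experiment 2. For any change, the count of 2 (1 member) was 1 (0 members) with limma and with reference reads as offset, 14 (12) without a filter and 8 (7) with the block. DESeq2, odds and TMM on shares called 2 members each, and leaving out a library gave 1 to 2 (0 to 1). At 12 h against 0 h, the count of 2 (1 member) was 1 (0) with limma, 4 (3) each with TMM on shares, at a mean of at least 20 reads and with templated reads, 11 (10) without a filter, 9 (8) with the block and 0 (0) in the 4 libraries of 0 h and 12 h. DESeq2 called 2 members there, and leaving out a library gave 1 to 5 (0 to 4). The slope difference count of 0 was 1 with DESeq2 and 0 to 1 when each library was left out (1 without 10 h of experiment 2, with 0 members). The level count was 96 to 120 (30 to 39 members) when each library was left out. The correlation of the median share with time reversed to r = 0.29 in experiment 1 alone, and over left-out libraries it was -0.25 to -0.0039, beside -0.49 to -0.14 for the pooled share. With the replicate block the pooled share gave r = -0.52 (unadjusted permutation p = 0.0472). With reference reads as offset, signs turned for the trends of miR-222-3p (0.0319), miR-199a-3p (0.0027) and miR-26a-5p (0.00038), and at 12 h for miR-222-3p (log2 0.42) and miR-199a-3p (0.0899). The latter also turned at 12 h without the 12 h library of experiment 1 or the 0 h library of experiment 2 (0.0086 and 0.0675), with -0.357 to 0.0675 over left-out libraries. Fewer miRNAs or samples were tested under some of these settings, and otherwise the cause was not tested. Apart from the calls named here and in the results, the block changed no call on a named member. Depth limits the 65 members under a mean of 5 reads, which were not tested.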
